A study of Mus musculus with 6 samples.

Results

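Macrophage and Kupffer cell markers were followed in liver 1 day after bile duct ligation (BDL), through 10 genes: Cd68, Lyz2, Adgre1, Csf1r, Tyrobp, C1qa, C1qb, C1qc, Marco and Clec4f. The members were every probe set (the short oligonucleotides that read out a transcript together) whose platform symbol was one of these genes. This gave 15 probe sets for the 10 genes out of 12488 probe sets on the array, and 1 more that is shared by Lyz2 and its neighbour Lyz1 and is named for neither. The mice were C57BL/6J males, wild-type and 8 to 10 weeks old, with 1 mouse per Affymetrix U74Av2 array. In 3 mice (replicates 1, 12 and 3) the common bile duct had been tied at both ends and cut, and the 3 controls (replicates 1, 2 and 3) had the same opening of the abdomen without ligation, so every animal had been anaesthetised with methoxyflurane and operated on. RNA of whole liver was used, so the number of macrophages and the RNA per macrophage cannot be told apart in any value below.

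Kupffer cells are the macrophages that live in the liver sinusoids, where they take up particles, bacteria and old red cells from portal blood. They depend on the receptor Csf1r for survival, carry scavenger and lectin receptors on their surface, and are a main source of the complement protein C1q. After injury, monocytes from blood enter the liver and become macrophages that share most of these markers, while Clec4f in mice is largely restricted to Kupffer cells and Marco marks a subset of resident macrophages.

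The arrays had been scaled alike, with a 2% trimmed mean of 1499 to 1500 on each. A floor of 152.7, which is the 25th percentile of the deposited signals, replaced any lower signal before log2 was taken, and a probe set was tested where at least 3 of 6 arrays exceeded it. Of the 15 marker probe sets 11 were tested, covering 9 genes, and Marco was not tested. Sham replicate 1 stood apart at low signals, with 12.5% of its probe sets at or under the floor against 24.4% to 31.3% on the other arrays. Sham replicate 3 had the lowest median signal, 432 against 497 to 628 elsewhere. Hepatocyte RNA was present on each array, with Apoa1 signals from 115981.7 (sham replicate 1) up to 211657.3 (BDL replicate 12).

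The upstream sequences at hand (RefSeq, GRCm38.p6) covered 6 of the 10 genes: Cd68, C1qb, C1qc, Marco, Clec4f and Lyz2. The 250 bases before the start were searched on both strands for GAGGAA, the core bound by the myeloid factor PU.1, and for TATAAA. The first motif, on either strand, occurred in 4 of these 6 windows, against 23.3% of all 32851 windows. The second, on either strand, occurred in 0 of 6, against 12.4%. The 4 windows with the first motif are shown. They were chosen for it, so that they share it is no result, and the Clec4f and Lyz2 windows had no match. Of the genes of these 4 windows, Cd68 was highest in BDL replicate 12, and C1qc and Marco were highest in BDL replicate 3. For C1qb the highest array depended on the probe set, as described below. Capitals mark the match, and all 4 lie on the minus strand, at chr11:69666171-69666420 for Cd68, chr4:136886201-136886450 for C1qb, chr4:136892915-136893164 for C1qc and chr1:120505025-120505274 for Marco.
Cd68: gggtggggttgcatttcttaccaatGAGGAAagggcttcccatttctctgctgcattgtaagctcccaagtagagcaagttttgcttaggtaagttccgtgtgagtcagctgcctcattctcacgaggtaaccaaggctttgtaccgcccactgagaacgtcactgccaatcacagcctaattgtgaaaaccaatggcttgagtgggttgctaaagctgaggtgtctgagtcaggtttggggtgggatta
C1qb: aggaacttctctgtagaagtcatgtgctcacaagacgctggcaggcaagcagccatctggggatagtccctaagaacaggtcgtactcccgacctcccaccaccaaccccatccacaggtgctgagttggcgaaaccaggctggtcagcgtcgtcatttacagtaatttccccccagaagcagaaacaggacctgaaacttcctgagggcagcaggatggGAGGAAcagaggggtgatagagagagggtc
C1qc: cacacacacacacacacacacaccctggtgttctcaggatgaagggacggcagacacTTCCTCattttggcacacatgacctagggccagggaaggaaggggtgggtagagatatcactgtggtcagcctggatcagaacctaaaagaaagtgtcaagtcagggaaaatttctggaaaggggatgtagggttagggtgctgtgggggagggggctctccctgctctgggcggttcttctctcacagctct
Marco: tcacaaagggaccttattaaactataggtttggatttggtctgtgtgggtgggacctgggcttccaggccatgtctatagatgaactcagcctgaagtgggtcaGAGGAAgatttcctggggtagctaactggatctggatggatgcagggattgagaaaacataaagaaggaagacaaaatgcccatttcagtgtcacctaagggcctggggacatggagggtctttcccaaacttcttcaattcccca
The match starts at -30 from the annotated start in C1qb, -146 in Marco, -193 in C1qc (on the opposite strand to the gene) and -225 in Cd68. For C1qc the position is counted from the window edge at 136892915. That edge lies inside the annotated gene, which reaches 136892936, so this window is not wholly upstream of it. A match of letters is a description and says nothing of binding.

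The comparison asked whether macrophage transcripts differed 1 day after BDL. Most markers had higher mean signals in BDL than in sham livers, but no member passed the test over all probe sets. Of 9 tested member genes 7 had a positive log2 difference, where 49.2% of 6897 tested genes did, and the median difference was 0.85 against -0.01 over all tested genes. The differences of the 9 genes ran from -0.29 to 1.12. With limma, 0 of 9 members passed a Benjamini-Hochberg adjusted p of 0.05, as 0% of all 9542 probe sets did. At an unadjusted limma p under 0.05, 1 of 9 was higher (Tyrobp) and 0 lower, against 3.42% and 2.28% of all tested genes. The BDL and sham signals did not overlap for 1 of 9 (Tyrobp, higher), against 6.32% of genes that were apart and higher, and 0 members were apart and lower, against 4.26%. The markers were chosen with results of these arrays known, so their counts are not independent evidence of a direction. The median was 0.28 without sham replicate 3, the array on which 0 of the 9 genes was above its own median over the arrays.

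**Figure D1:**
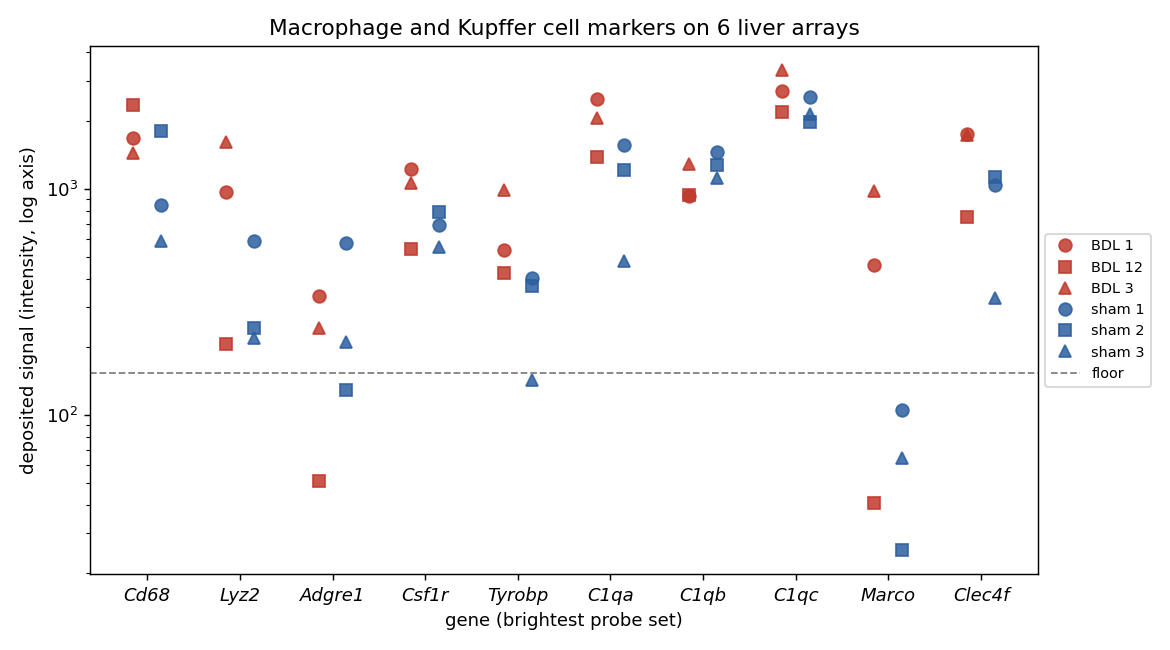
Deposited signal (intensity, log axis) of each of the 10 genes on each array, in red for BDL and blue for sham mice, with the brightest tested probe set for each gene (Marco has 1) and the floor of 152.7 dashed. Marco is above the floor only in BDL replicates 1 and 3, and Cd68 is the gene whose highest value is BDL replicate 12; heights of different genes are not comparable.

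Cd68, a glycoprotein of macrophage lysosomes and endosomes, gave signals of 1680.9, 2353.7 and 1431.1 in the BDL mice (here and below in the order 1, 12, 3) and of 848.8, 1797.1 and 587.7 in the sham mice (in the order 1, 2, 3). Sham replicate 2 lay inside the BDL range, while the other sham mice were below it. The log2 difference was 0.89 (SE 0.44, n = 3 and 3; 95% interval -0.11 to 1.89; limma adjusted p = 0.832), a ratio of geometric means of 1.85. A second Cd68 probe set had signals of 9.3 to 71.4, under the floor on all 6 arrays, and gave no usable level.

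Lyz2 encodes lysozyme M, the secreted bactericidal enzyme of macrophages and neutrophils. Its signals were 969.9, 205.3 and 1613.8 in BDL and 589.4, 241.7 and 219.9 in sham mice. BDL replicates 1 and 3 were above all sham mice, whereas BDL replicate 12 was the lowest of the 6. The log2 difference was 1.12 with an SE of 0.73 (95% interval -0.54 to 2.78; limma adjusted p = 0.834), and the SD within BDL was 1.55. Without BDL replicate 12 the difference was 1.99 (SE 0.51; limma adjusted p = 0.761), and without BDL replicate 3 it was 0.50. The shared probe set of Lyz1 and Lyz2 exceeded the floor on 2 arrays, BDL replicate 3 at 487.9 and sham replicate 1 at 170.5, and a further Lyz2 probe set was under the floor on all 6.

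Adgre1 encodes F4/80, the classical surface antigen of mouse tissue macrophages. It gave 337.4, 51.0 and 243.1 in BDL and 576.4, 128.7 and 211.3 in sham mice, so the groups overlapped and sham replicate 1 was highest. The log2 difference of -0.19 (SE 0.52; 95% interval -1.38 to 1.00; limma adjusted p = 0.958) turned to 0.37 without sham replicate 1 and to 0.11 without BDL replicate 12. The other Adgre1 probe set was under the floor in all BDL mice and gave 261.9, 247.9 and 85.5 in the sham mice, with 2 of 3 above the floor, and was not tested.

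Csf1r, the receptor tyrosine kinase for the growth factors CSF1 and IL-34, gave 1219.2, 540.7 and 1055.8 in BDL and 689.6, 791.6 and 555.1 in sham mice. BDL replicates 1 and 3 were again above all sham mice and BDL replicate 12 was the lowest of all. The log2 difference was 0.40 (SE 0.37; 95% interval -0.45 to 1.25; limma adjusted p = 0.873). The dimmer Csf1r probe set differed by -0.07 (SE 0.44), with 189.7, 289.8 and 348.9 in BDL and 360.2, 400.4 and 113.4 in sham mice. That difference was small beside its SE, so the dimmer probe set showed no direction.

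Tyrobp encodes DAP12, the membrane adaptor that passes signals from activating myeloid receptors such as the TREM family to the kinase Syk. Its signals were 533.8, 424.8 and 986.2 in BDL and 401.9, 370.0 and 142.6 in sham mice. All BDL values were above all sham values, by a narrow margin between BDL replicate 12 and sham replicate 1. The log2 difference was 1.10 (SE 0.47; 95% interval 0.03 to 2.17; limma unadjusted p = 0.0453, adjusted p = 0.832), a ratio of geometric means of 2.14. Sham replicate 3 was under the floor, and without that array the difference was 0.65 (SE 0.42).

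**Figure D2:**
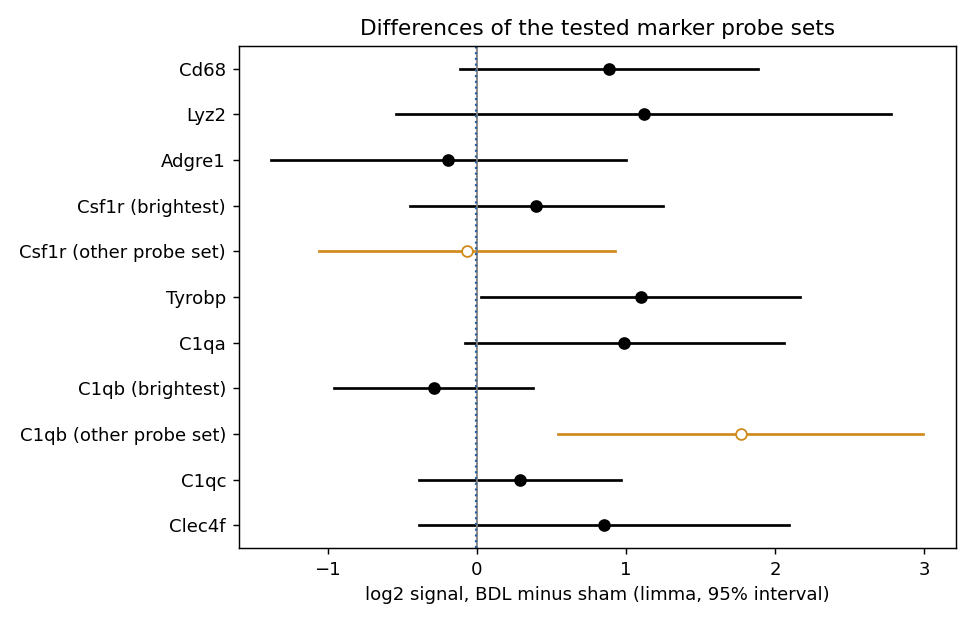
Log2 signal difference, BDL minus sham, with limma's 95% interval for the 11 tested marker probe sets; filled points are the brightest probe set of a gene, open points another one, and the dotted line is the median of all tested genes (-0.01). The interval leaves out 0 only for Tyrobp and for the dimmer C1qb probe set, which lies opposite to the brighter one.

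The genes C1qa, C1qb and C1qc encode the A, B and C chains that together form C1q, the recognition part of the first complement component, and lie side by side in the genome in the order C1qb, C1qc, C1qa. C1qa gave 2496.3, 1381.4 and 2060.2 in BDL and 1553.1, 1213.9 and 480.4 in sham mice. Sham replicate 1 lay above BDL replicate 12, and sham replicate 3 was far below the rest. The C1qa log2 difference was 0.99 (SE 0.47; 95% interval -0.08 to 2.06; limma adjusted p = 0.832) and was 0.49 without sham replicate 3.

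C1qc gave 2701.6, 2184.7 and 3347.5 in BDL and 2533.3, 1980.1 and 2146.1 in sham mice, a highest signal 1.69 times the lowest. BDL replicate 12 lay between the sham values. The log2 difference was 0.29 (SE 0.30; 95% interval -0.38 to 0.97; limma adjusted p = 0.880), a ratio of geometric means of 1.22.

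For C1qb the 2 tested probe sets went opposite ways. The brighter one, whose suffix marks a set with fewer probes than usual, gave 930.4, 942.8 and 1288.5 in BDL and 1458.2, 1276.0 and 1111.1 in sham mice, a log2 difference of -0.29 (SE 0.29; limma adjusted p = 0.880) with overlapping groups. The dimmer one gave 1679.8, 515.4 and 890.7 in BDL and 260.9, 487.7 and 73.2 in sham mice. Here all BDL values were above all sham values, with a log2 difference of 1.77 (SE 0.54; 95% interval 0.55 to 2.99; limma unadjusted p = 0.00980, adjusted p = 0.832), a ratio of geometric means of 3.41. The dimmer set and C1qa were both highest in BDL replicate 1 and lowest in sham replicate 3, whereas the brighter set was highest in sham replicate 1 and lowest in BDL replicate 1. With the dimmer set standing for C1qb, the median over the 9 genes was 0.89. Which probe set reports the C1qb transcript was not tested.

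**Figure D3:**
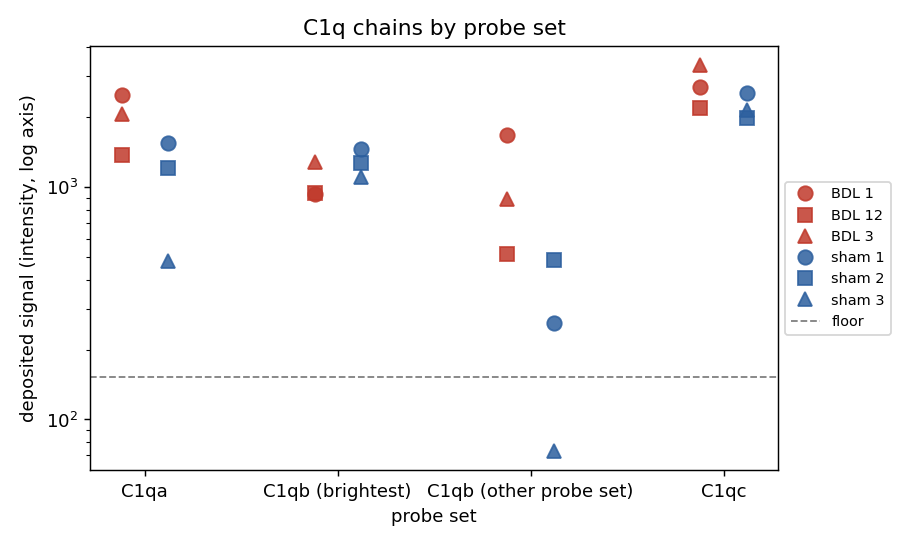
Deposited signal (intensity, log axis) of the C1q probe sets on each array, in red for BDL and blue for sham mice, with the floor dashed; heights of different probe sets are not comparable. The dimmer C1qb set spans 73.2 to 1679.8 with the groups apart, while the brighter C1qb set spans 930.4 to 1458.2 with overlapping groups.

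Marco, a scavenger receptor that binds bacteria and particles, was near or under the floor on most arrays. It gave 458.2, 40.7 and 976.4 in BDL mice, and 105.6, 25.3 and 64.5 in the sham mice. BDL replicates 1 and 3 were above the floor, while BDL replicate 12 and all sham mice were under it, so the groups overlapped and no fold is given. Because 2 arrays exceeded the floor it did not enter the test.

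Clec4f, the C-type lectin of Kupffer cells, gave 1742.3, 751.1 and 1735.7 in BDL and 1035.5, 1132.1 and 328.6 in sham mice. BDL replicates 1 and 3 were nearly equal and above all sham mice, and BDL replicate 12 lay between the sham values. The log2 difference was 0.85 (SE 0.54; 95% interval -0.39 to 2.09; limma adjusted p = 0.832) and was 0.28 (SE 0.44) without sham replicate 3.

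Single mice stood out across the members. Over the 10 genes by their brightest probe set, BDL replicates 1 and 3 were both above all 3 sham mice in 7, BDL replicate 12 was the lowest BDL array in 8, and sham replicate 3 was the lowest sham array in 7. The first of these counts sets BDL replicate 12 aside. These orderings were not counted over all tested genes, so they are not shown to be particular to the markers. Sham replicate 3 had the lowest median signal of all arrays (432). Centred on each gene's own mean, the mean log2 signal of the 9 tested genes was 0.49, -0.26 and 0.63 in BDL and 0.15, -0.16 and -0.86 in sham mice. BDL replicate 12 was thus below sham replicates 1 and 2. Hepatocyte markers, centred in the same way with the median over 17 genes, were -0.11, 0.25 and -0.10 in BDL and -0.33, -0.09 and 0.38 in sham mice, highest on the same arrays, BDL replicate 12 and sham replicate 3, on which the macrophage markers were lowest. The summed signal of the hepatocyte list ran from 915058 up to 1318910 in BDL and from 741756 up to 1204680 in sham mice, with 0 of 17 under the floor on all arrays. The part of that pattern in the marker differences was not tested.

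**Figure D4:**
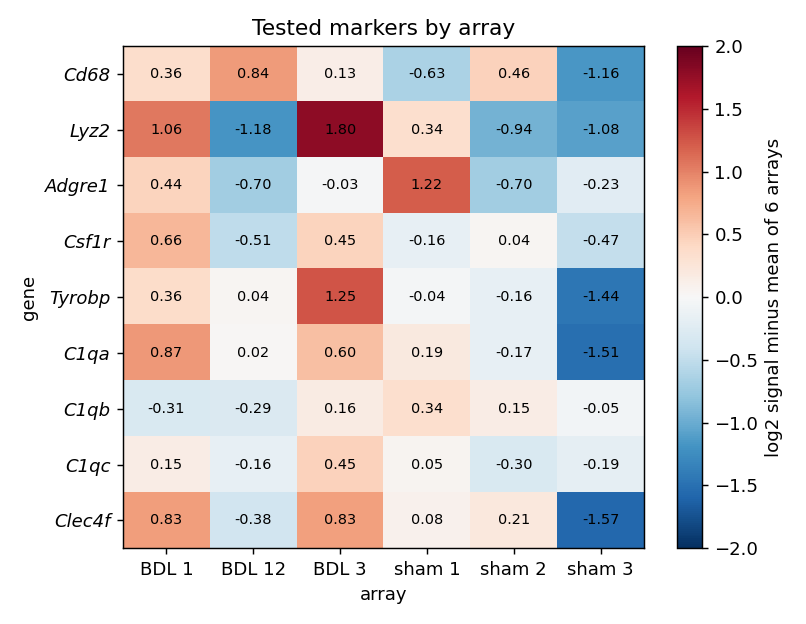
Log2 signal of the 9 tested genes on each array minus the gene's mean over the 6 arrays (colour scale from -2 to 2, values printed). Sham replicate 3 is low for 8 of the genes by 0.19 or more, and BDL replicate 12 is at 0.84 for Cd68 and at 0.04 or lower for the other 8.

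The members varied together unequally. Pearson correlations between pairs of the 9 genes over the 6 arrays had a median of 0.57 and were positive in 32 of 36 pairs; they are descriptions over points that share array scaling and low-signal background. The closest pairs were Lyz2 with C1qc (0.96), Clec4f with C1qa (0.95) and Tyrobp with Clec4f (0.91). Cd68 correlated with C1qa at 0.63 but with Lyz2 at 0.05 and with Adgre1 at -0.45. The brighter C1qb set correlated with C1qa at -0.06, whereas the dimmer C1qb set correlated with C1qa at 0.87. The 2 C1qb sets correlated with each other at -0.40.

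Among 5551 other genes above the floor on all 6 arrays, the 5 most like the mean marker profile were Vcam1, Rufy3, Ppl, Slc23a3 and Diaph2, with Pearson correlations of 0.96 to 0.99 over 6 arrays. Vcam1, an adhesion molecule for leukocytes, gave 783.1, 390.6 and 824.8 in BDL and 577.7, 412.5 and 228.2 in sham mice (r = 0.99). Its groups overlapped, with a log2 difference of 0.74 (SE 0.44; limma adjusted p = 0.832). With so many candidates and 6 points, correlations this high are a description only.

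Genes that act with the members were read from lists written with earlier results known; in each of the 18 lists 0 genes passed the limma adjusted p of 0.05, and some genes stand in more than 1 list. Over all tested genes 49.2% were positive, 3.42% higher and 2.28% lower at an unadjusted limma p under 0.05, and 6.32% apart and higher and 4.26% apart and lower, which is the background for each list below. Other Kupffer cell genes had a median difference of 0.50, with 10 of 14 tested genes positive, and 3 higher and 0 lower at an unadjusted limma p under 0.05; the median was 0.13 without sham replicate 3. Lpl, lipoprotein lipase, differed by 1.32 (SE 0.34), Hmox1, which breaks down heme, by 1.25 (SE 0.48) and Slc11a1, the phagosomal metal transporter NRAMP1, by 0.95 (SE 0.38), each with the groups apart. Slc29a1, a nucleoside transporter named after its values were seen, was apart the other way, at -0.63 (SE 0.32), while its other probe set was at 0.41 (SE 0.37). Slc11a1 gave 594.8, 369.0 and 860.6 in BDL and 314.9, 360.2 and 231.6 in sham mice. The secreted macrophage protein Cd5l, named after its values were seen, gave 1604.0, 288.5 and 1461.9 in BDL and 1076.2, 203.0 and 349.0 in sham mice, low in BDL replicate 12 as Lyz2 was.

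Other myeloid genes had a median of 0.01 over 28 genes, 14 of them positive, with 2 higher and 1 lower at an unadjusted limma p under 0.05. Ctss, a lysosomal cathepsin, gave 2197.5, 2332.3 and 2257.6 in BDL and 1399.0, 1553.8 and 791.2 in sham mice, with the groups apart. Cd14, the coreceptor for endotoxin, gave 1873.1, 29691.9 and 15816.4 in BDL and 716.6, 4567.7 and 1176.4 in sham mice, a difference of 2.61 (SE 1.02; limma adjusted p = 0.832), with its highest value in BDL replicate 12 as for Cd68. The fractalkine receptor Cx3cr1 differed by -1.39 (SE 0.58), with a sham replicate 1 signal of 2779.2 against 1033.9 and 726.1 in the other sham mice.

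Monocyte genes had a median of 0.30, with 8 of 11 positive and 2 higher and 0 lower at an unadjusted limma p under 0.05. The median was 0.16 without BDL replicate 3. The list counts Hp, haptoglobin, named after its values were seen, at 0.28 (SE 0.31). The Hp signals, 97128.1 up to 184775.5, were near those of the hepatocyte marker Apoa1. The part of hepatocyte RNA in this list was not tested. Chil3, the chitinase-like protein Ym1, gave 695.4, 340.8 and 1269.2 in BDL and 187.1, 317.6 and 267.7 in sham mice, and differed by 1.41 (SE 0.48). Plac8 differed by 0.78 (SE 0.30), also with the groups apart. Cytokine and activation genes had a median of 0.39 with 14 of 17 positive, 1 higher and 1 lower at an unadjusted limma p under 0.05. The list counts the urea cycle enzyme Arg1, named after its values were seen, at 0.32 (SE 0.36). The Arg1 signals ran from 35278.7 up to 86094.0, and the part of hepatocyte RNA in them was not tested. Cxcl2, a neutrophil chemokine, differed by 1.63 (SE 0.52) with 2 of 3 sham mice under the floor, and the chemokine Ccl4 by -0.91 (SE 0.38) with 2 of 3 BDL mice under the floor. Ccl2, the monocyte chemoattractant, was not tested and is named after its values were seen: it gave 1229.5, 30.2 and 2177.6 in BDL and 147.1, 51.8 and 15.6 in sham mice, above the floor on the same arrays as Marco.

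The TYROBP, CSF1R, complement and transcription factor lists had medians below 0, and of these the TYROBP list alone stayed below 0 without sham replicate 1. TYROBP receptors and signalling partners had a median of -0.38 with 3 of 10 positive, and 1 higher and 1 lower at an unadjusted limma p under 0.05. The kinase Fgr was at -1.03 (SE 0.40) and Syk at -0.70 (SE 0.45), each with overlapping groups. Both were highest in sham replicate 1, Fgr at 2119.7 against 1296.1 and 765.3 in the other sham mice. Syk gave 5216.2 there against 3116.8 and 1704.1. The adaptor Lat2 was at 0.82 (SE 0.30) with 2 of 3 sham mice under the floor, while its other probe set was at -0.30 (SE 0.38). CSF1R ligands and macrophage growth factors had a median of -0.19 with 4 of 9 positive and 0 at an unadjusted limma p under 0.05. Their median was 0.22 without sham replicate 1. Csf1 itself, named after its values were seen, gave 1088.6, 1033.2 and 1096.1 in BDL and 1431.9, 1504.0 and 841.7 in sham mice. Classical complement partners of C1q had a median of -0.10 with 3 of 11 positive and 0 at an unadjusted limma p under 0.05, and the median was 0.05 without sham replicate 1. Macrophage transcription factors had a median of -0.16 with 4 of 11 positive, and 0.23 without sham replicate 1. They included Spi1, which encodes PU.1, at -0.61 (SE 0.39), Irf5 at 0.65 (SE 0.30) and Id3, needed for Kupffer cell development, at 1.02 (SE 0.41). The groups were apart for Irf5 and overlapped for Spi1 and Id3. At an unadjusted limma p under 0.05, 1 gene of this list was higher (Id3) and 0 lower. The list median is the value of Cebpb, named after its values were seen, and the part of hepatocyte RNA in it was not tested. Scavenger and phagocytic receptors had a median of 0.26 with 11 of 15 positive, and 1 higher and 0 lower at an unadjusted limma p under 0.05. With single arrays left out their median ran from 0.16 (BDL replicate 1) up to 0.54 (sham replicate 2). Fcgr2b, an inhibitory IgG receptor that sinusoidal endothelium also carries, differed by 1.29 (SE 0.33).

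**Figure D5:**
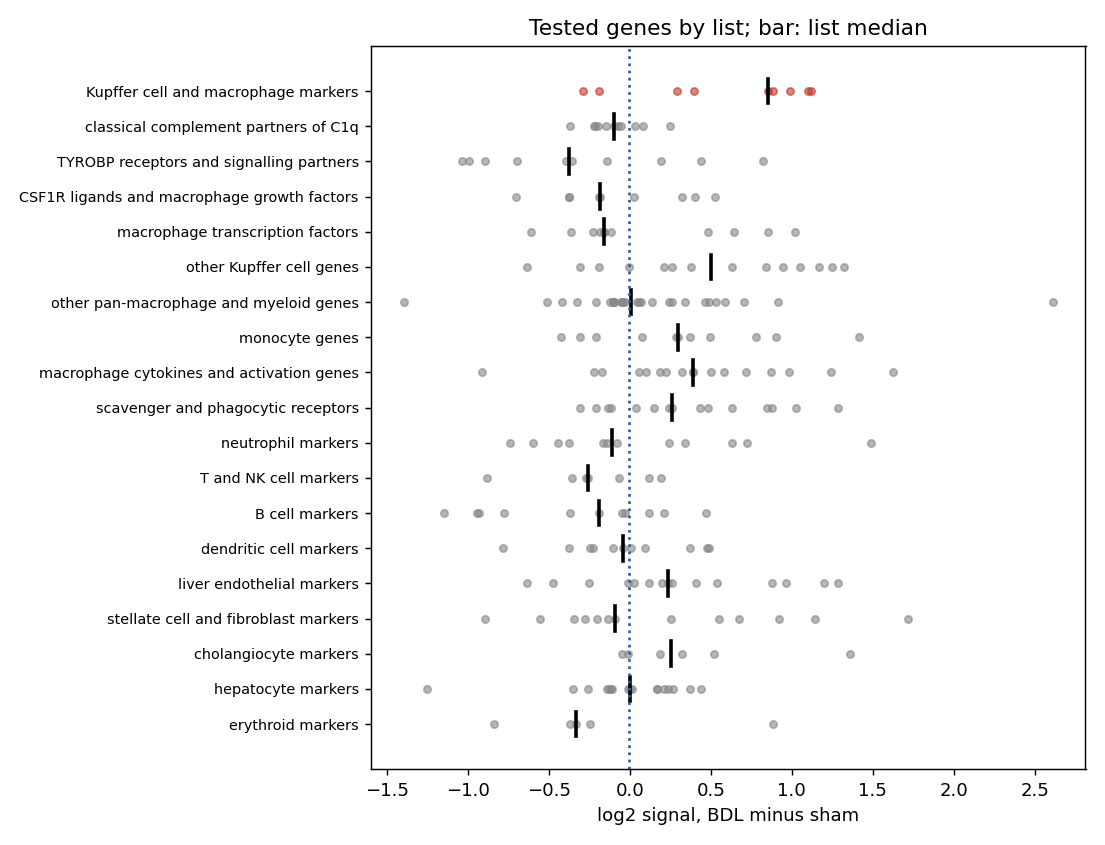
Log2 signal difference, BDL minus sham, of each tested gene by list, with the macrophage markers in red; black bars are list medians and the dotted line is the median of all tested genes (-0.01). The marker median of 0.85 lies to the right of the medians of the 18 other lists, which run from -0.38 to 0.50; without sham replicate 3 it is 0.28, below the cytokine (0.50), monocyte (0.43) and scavenger receptor (0.40) medians.

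Markers of other cells were read beside these. Neutrophil markers, whose cells also make Lyz2, had 5 of 12 positive with a median of -0.11, with 1 higher and 0 lower at an unadjusted limma p under 0.05. Their summed signal over 15 genes ranged from 63261 up to 110584 in BDL and from 50530 up to 70601 in sham, but most of it was Lcn2, which hepatocytes also make. Without Lcn2, a choice made after seeing the data, the sum of the other 14 genes ranged from 6631 up to 9578 in BDL and from 5448 up to 13186 in sham, and 0 of 15 were under the floor on all arrays. Neutrophil elastase, Elane, was at -0.74 (SE 0.39) and Camp at -0.60 (SE 0.33), with the groups apart for Camp. The margin for Camp was narrow, 726.6 in BDL replicate 1 against 731.8 in sham replicate 3. The neutrophil list median was 0.12 without sham replicate 1. S100a9, a subunit of calprotectin, gave 584.9, 304.1 and 1781.8 in BDL and 191.5, 239.2 and 311.3 in sham mice. S100a9 and Lyz2 were both highest in BDL replicate 3, and the part of neutrophil RNA in the Lyz2 value was not tested. T and NK cell markers had a median of -0.26 with 2 of 7 tested genes positive and 2 of 16 under the floor on all arrays, and B cell markers -0.19 with 3 of 11. Dendritic cell markers had a median of -0.04 with 5 of 11 positive. At an unadjusted limma p under 0.05 the T and NK cell and dendritic cell lists had 0 genes, and the B cell list 0 higher and 1 lower. Stellate cell and fibroblast markers had a median of -0.09 with 6 of 13 positive, and 3 of 13 were higher and 0 lower at an unadjusted limma p under 0.05: Acta2, smooth muscle actin, at 1.14 (SE 0.38, 2 of 3 sham mice under the floor), Sparc at 0.92 (SE 0.34) and Reln at 1.72 (SE 0.71), with the groups apart for Acta2 and Sparc. Over all tested genes 3.42% were higher by that limit. The other Reln probe set was at -0.66 (SE 0.48). Liver endothelial markers had a median of 0.24 with 11 of 15 positive and 2 higher and 0 lower, Fcgr2b and the junction protein Cdh5, whose groups overlapped at 831.3, 884.6 and 720.9 in BDL and 227.7, 887.6 and 215.8 in sham mice. Leaving out single arrays gave endothelial medians from 0.06 (sham replicate 3) up to 0.54 (sham replicate 2), with 0.07 when BDL replicate 1 was dropped. Cholangiocyte markers had a median of 0.26 with 4 of 6 positive and 1 higher and 0 lower, Anxa3 at 1.36 (SE 0.26) with the groups apart, measured against the floor since its 3 sham signals were under it. Hepatocyte markers had a median of 0.00 with 9 of 17 positive and 0 higher and 1 lower, Ttr at -1.25 (SE 0.36), and erythroid markers -0.33 with 1 of 5 positive and 0 genes at that limit.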

How the data were processed

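Liver RNA was hybridised as 20 µg cRNA, with 1 mouse per array, in 3 BDL and 3 sham mice grouped by the sample titles. The deposited values are intensity on a linear scale, 1 per probe set and array, made by the authors with GeneChip expression software (version 3.1) and Affymetrix's MicroArray Suite (version 4.0), per the series' design text. How signals were scaled or background was removed is not stated there. Low signals therefore cannot be told from absent ones except by the floor.

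Trimmed means within 5% of each other were taken as scaled. Values were floored, log2 was taken and BDL minus sham was fitted with limma 3.58.1 in R 4.3.3 (lmFit, eBayes; no covariates), over 9542 probe sets, with Benjamini-Hochberg adjustment at 0.05; 66 control probe sets were left out and 2880 were too low. A gene was represented by its brightest tested probe set. SE is limma's moderated error on the log2 scale. The floor understates differences of low signals. The script was tested on simulated data. The number of arrays limits the precision. Platform symbols matched RefSeq (GRCm38.p6) by gene identifier; 10833 probe sets had 1 symbol, 396 several and 1193 none.

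Members and lists were chosen with earlier results of these data known. The text names each member, up to 4 genes per list with the smallest unadjusted p, and the 5 genes most like the mean marker profile; other names are marked. Alternatives were quantile normalization, floors at the 10th and 40th percentiles, log2(value + 100), no filter, a variance trend, array weights, the mean of a gene's probe sets, the replicate block, and leaving out each array; the other C1qb probe set and the neutrophil sum without Lcn2 were added after seeing the data.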

Additional observations from a re-analysis of the deposited data

How the results depend on the processing

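The count of probe sets past the adjusted threshold was 0 in each setting run except without the filter, where it was 3 (Anxa3, Myc and Ate1, each with all sham signals under the floor, and no macrophage marker). At an unadjusted limma p under 0.05 it was 552 probe sets in the main setting, 1023 with array weights, 1176 without sham replicate 3 and 308 without BDL replicate 3. The median difference over the marker genes, 0.85, lay between 0.28 (without sham replicate 3) and 0.93 (without sham replicate 2) when 1 array was left out, and was 0.47 with array weights. Tyrobp, C1qa, C1qc, Cd68, Clec4f, Csf1r and Lyz2 were positive in each of the 16 alternatives. Of these settings, no filter, the variance trend and the other C1qb probe set could not alter the differences of these genes. C1qa (0.99), C1qc (0.29) and Cd68 (0.89) also kept their differences with both other floors and with the mean of probe sets. Csf1r (0.40) kept its difference with both other floors. Clec4f (0.85) and Lyz2 (1.12) kept theirs with the floor at the 10th percentile and with the mean of probe sets. Tyrobp has 1 probe set, so the mean of probe sets could not alter it. Adgre1, -0.19, was 0.33 with array weights and between -0.59 and 0.37 with 1 array left out. C1qb, -0.29, was 1.77 from its other probe set and 0.74 as the mean of its probe sets. The cause of these changes was not tested, apart from the choice of C1qb probe set. With the replicate block (numbers 1 and 3 occur in both groups, but nothing in the labels pairs them, and their deviations correlated at 0.209 and 0.246) 0 probe sets passed and the marker median was 1.13. In that setting BDL replicate 12 and sham replicate 2 had no partner. The block difference therefore rested on replicates 1 and 3 of each group and left BDL replicate 12 out. Of 270 list medians under the alternatives 10 moved by more than the spread between arrays. Not given above, these were T and NK cell markers (0.20 without sham replicate 1), erythroid markers (0.04 without BDL replicate 3), neutrophil markers (0.19 with quantile normalization), cytokine genes (0.23 with the floor at the 40th percentile) and scavenger receptors (0.59 with the replicate block). Weak probe sets near the floor limit Marco, Adgre1 and Tyrobp most.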
